A study of Mus musculus with 4 samples.

Results

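Ion channel genes were examined in a naive mouse embryonic stem cell state and in a later pluripotent state. The gene names for the subunits of potassium channels (Kcn), calcium channels (Cacna, Cacnb and Cacng), sodium channels (Scn) and the TRPC, TRPM and TRPV cation channels were taken from the deposited table by their symbols, which gave 153 of 52327 gene names: 92 for potassium, 26 for calcium, 14 for sodium and 21 for TRP channels. RNA sequencing libraries of the mouse line 46C were compared, with 2 libraries of embryonic stem cells (ESCs) in 2i, the control, and 2 libraries of rfISCs in PIF, which the labels call intermediate between the rosette and formative states. As background, 46C is a reporter line with GFP at the Sox1 locus and 2i holds inhibitors of MEK and GSK3, and the labels give no genotype difference between the groups. Nothing in the labels tells whether libraries of a group were grown apart, so a p-value here reflects library-to-library spread that could be technical, and both groups come from 1 line.

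Ion channels let selected cations cross the membrane and set its voltage. Voltage-gated channels have a pore subunit that opens with voltage and auxiliary subunits that tune its gating and its traffic to the surface, while potassium leak and inward rectifier channels hold the resting voltage and several TRP channels carry calcium or magnesium. These families are best known from neurons and muscle, and a smaller set is also found in cells that do not fire, such as stem cells.

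Total counts ran from 19243701 to 23780989 per library, and the channel genes together took 13026 and 14508 counts of ESCs and 17272 and 19060 counts of rfISCs. Markers of the naive and formative states moved with the labels. The summed level of 7 naive genes such as Esrrb and Klf4 was 2577 and 2556 CPM (counts scaled by TMM to library size) in ESCs and 634 and 625 CPM in rfISCs, and that of 6 formative genes such as Otx2 and Dnmt3b was 128 and 113 CPM in ESCs and 727 and 741 CPM in rfISCs. The neuron markers summed to 390 and 383 CPM in ESCs and 363 and 366 CPM in rfISCs, with 6 of 10 called higher and 1 lower. Most of this sum was Stmn2, the marker called lower, whose mean fell from 279 CPM (ESCs) to 195 CPM (rfISCs). Among the 6 called higher, mean Tubb3 rose from 74.9 to 109 CPM and mean Map2 from 11.5 to 24.9 CPM. The near-level sum thus hides moves in opposite directions. Neural progenitor markers summed to 72.0 and 65.4 CPM in ESCs and 155 and 151 CPM in rfISCs. The 3 neural progenitor markers tested were called higher. Markers of muscle summed to between 33.7 and 53.1 CPM over the 4 libraries and of trophoblast to between 41.4 and 63.6 CPM, but these sums were mostly Ttn (43.8 CPM in ESCs, 27.5 CPM in rfISCs) and Tfap2c (54.6 and 35.7 CPM), both called lower. The other tested muscle markers, 3 of 4, and trophoblast markers, 2 of 3, were called higher at low levels, such as Myh7 (0.270 to 1.24 CPM) and Gata3 (0.200 to 3.32 CPM). Markers of fibroblasts summed to 6.87 and 10.9 CPM in ESCs and 19.2 and 17.6 CPM in rfISCs, with 3 of 5 tested called higher, and of primitive endoderm to 4.31 and 5.0 CPM in ESCs and 18.2 and 14.6 CPM in rfISCs, with 2 of 3 tested called higher. Lum, a fibroblast marker, had no counts. What part such cells had in the channel results was not tested, and in bulk RNA a change in the number of cells that express a gene and a change in the RNA per cell cannot be told apart.

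Channel genes were more often higher than lower in rfISCs. Of the 153, 68 had too few counts to test, among them 15 with no count in any library, and the most abundant of the 68 had 37 counts in all. Of the 85 tested, 35 were called higher at an adjusted p under 0.05 (edgeR quasi-likelihood test, adjusted over all 16355 tested genes), 15 were called lower and 35 were not called. The called shares were 41.2% higher and 17.6% lower, beside 27.3% higher and 26.4% lower, or 53.7% either way, over all tested genes. At least 2-fold changes were called higher in 28 and lower in 11 of the 85 channel genes. Over all 16355 tested genes they were called higher in 1953 (11.9%) and lower in 1642 (10%). The filter on low counts enters these shares. Of the 85, 11 reached it through the rfISCs libraries alone and 3 through the ESCs libraries alone, so these 14 had to differ, and the 11 were called higher and the 3 lower. The 11 include Cacnb2, Kcna1, Kcna5, Kcna6, Kcnh4, Kcns2, Kcnk2, Kcnk13, Kcnn4 and Trpm2, and the 3 are Cacng5, Cacna1s and Kcnu1. A further 16, Cacna1h among them, fell short of the filter's cut in some but not all libraries of a group, so it can bear on these too. Among the 62 channel genes that averaged 1 CPM or more, 24 were higher (38.7%) and 13 lower (21.0%), where all genes of that level gave 28.6% and 28.1%. The median log2 fold change was 0.47 over the 85 and 0.25 over the 62, beside 0.00 over all tested genes.

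**Figure D1:**
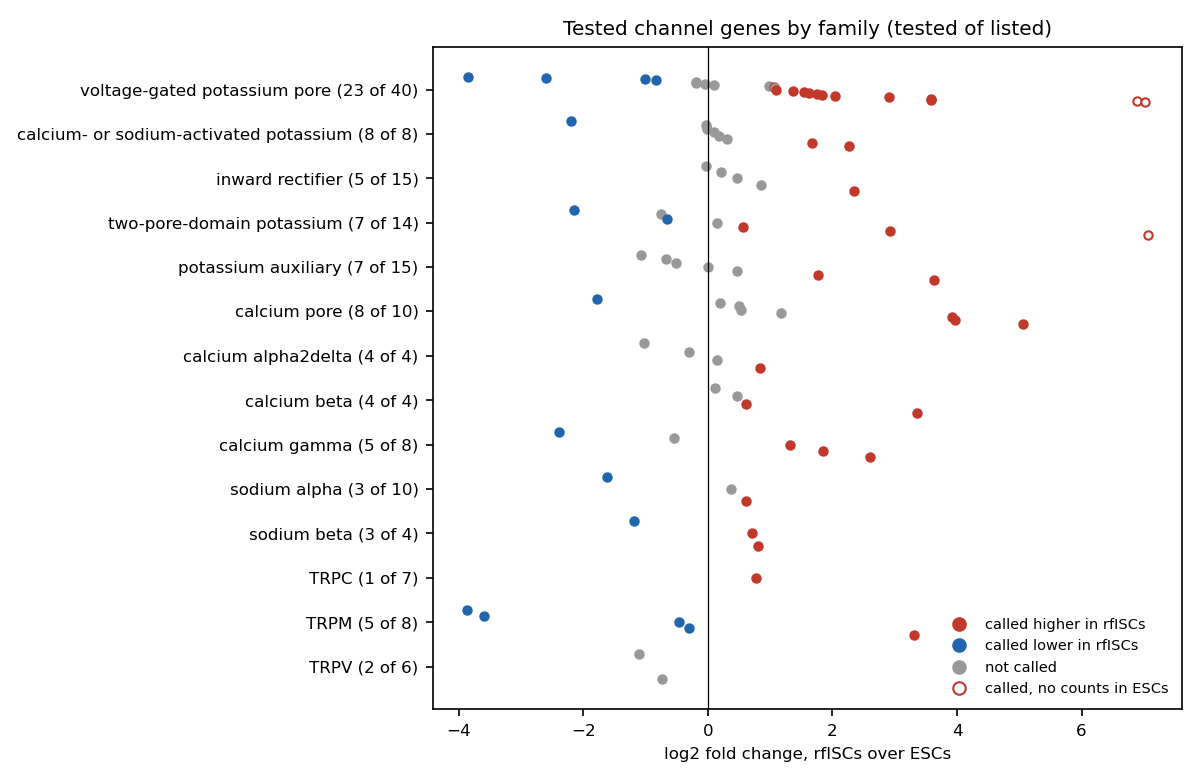
Log2 fold change of each tested channel gene, rfISCs over ESCs, with 1 point per gene and 1 row per family. Red points were called higher, blue points lower and grey points not called, and open circles are genes with no counts in ESCs, whose fitted position depends on the prior count. The voltage-gated potassium row holds 13 rises, 6 of which passed the filter through rfISCs alone, and 4 falls, and the TRPM row holds 4 falls and 1 rise.

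The families differed in how much RNA they held. Levels between genes are compared in TPM, which divides by transcript length. Summed over all channel genes the level was 357 and 350 TPM in ESCs and 379 and 371 TPM in rfISCs. The calcium gamma family, which is named for calcium channels but includes regulators of AMPA receptors, had 11.3 and 10.9 TPM in ESCs and 39.1 and 37.4 TPM in rfISCs. Calcium pore genes had 24.1 and 23.1 TPM in ESCs and 39.3 and 34.8 TPM in rfISCs. Voltage-gated potassium pore genes had 39.4 and 33.7 TPM in ESCs and 60.5 and 61.4 TPM in rfISCs. Two-pore-domain potassium genes, which encode leak channels, went the other way in their sum. They had 89.2 and 96.0 TPM in ESCs and 55.4 and 49.95 TPM in rfISCs. Kcnk18 alone held 56.8% of the family's TPM in ESCs, in 2 short transcripts assembled by the authors. The longer of these had 34.1 and 34.3 TPM in ESCs and 9.55 and 7.64 TPM in rfISCs. Of the 7 tested genes of the family 3 were called higher and 2 lower. TRPM genes also had more in ESCs, 88.4 and 105 TPM against 60.6 and 60.7 TPM. Part of this lay in an assembled transcript of Trpm3, at 9.67 and 18.3 TPM in ESCs and 0.99 and 0.18 TPM in rfISCs. A retained-intron transcript of Trpm1 had 6.03 and 9.54 TPM in ESCs and 0.53 and 0.28 TPM in rfISCs. Over coding transcripts alone neither Trpm3 nor Trpm1 was called. The ESCs and rfISCs libraries did not overlap in any of these 5 families, but this does not set them apart. Of all families, overlap was seen only in calcium alpha2delta, calcium- or sodium-activated potassium and TRPV genes.

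**Figure D2:**
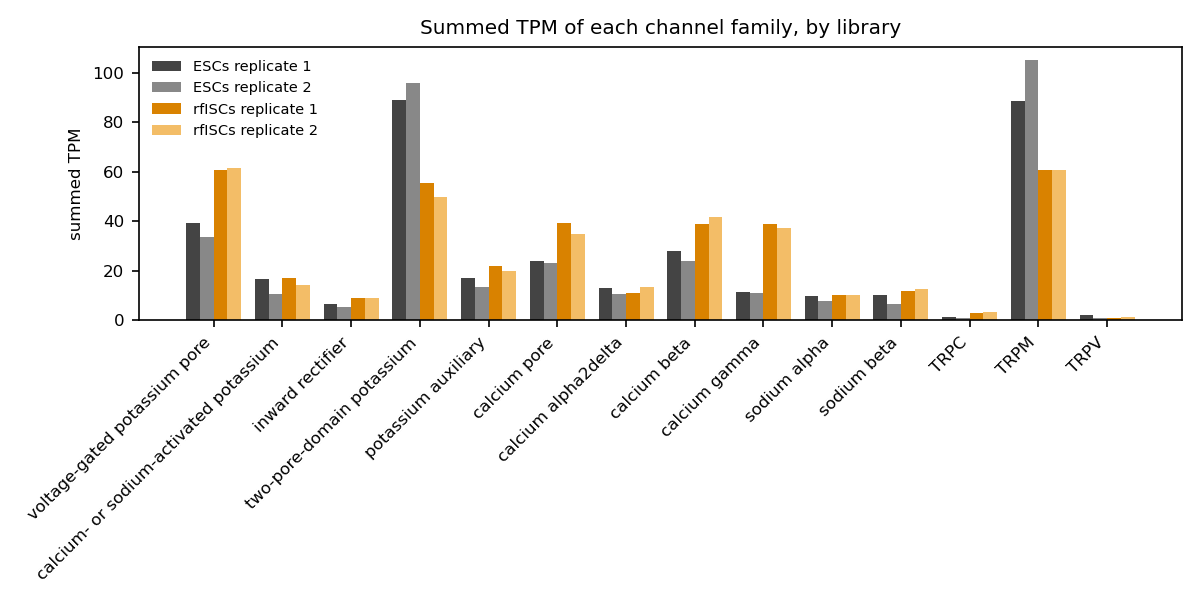
Summed TPM of the 14 channel families, with 1 bar per library. Two-pore-domain potassium and TRPM genes held the most in both ESCs libraries, at 89.2 and 96.0 TPM and at 88.4 and 105 TPM, and the calcium gamma bars are higher in both rfISCs libraries.

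A few genes carried much of this RNA. By mean TPM over the 4 libraries the order was Trpm7 (45.6), Kcnk18 (32.8), Cacnb3 (26.4), Kcnk5 (24.3), Cacna1a (18.8), Cacng7 (17.8), Trpm4 (13.6) and Trpm3 (12.9). Each neighbouring pair in this order overlapped over the 4 libraries. Cacnb3, for example, had 20.2 and 18.4 TPM in ESCs and 31.8 and 35.0 TPM in rfISCs, around the 29.0 and 26.7 TPM in ESCs and 21.1 and 20.2 TPM in rfISCs of Kcnk5. The order also differed between the states, since Kcnk18 led ESCs at 49.9 and 55.4 TPM and had 14.6 and 11.3 TPM in rfISCs, while Trpm7 had 47.4 and 46.4 TPM in ESCs and 45.7 and 42.9 TPM in rfISCs. The TPM of Kcnk18 rests on short assembled transcripts, described with the potassium genes.

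Among called genes with at least 1 CPM in the higher group, the 3 largest rises were in calcium channel pore genes. Of the 10 pore genes 8 were tested, with 3 higher, 1 lower and 4 not called. Cacna1g, which encodes a T-type channel that opens at small depolarisations, had 16 and 19 counts in ESCs and 688 and 690 in rfISCs. The libraries of a state were close to each other and far from those of the other state. Its level went from 0.898 ± 0.0356 to 30.0 ± 2.02 CPM (mean ± SD, n = 2 libraries per group), 33.2-fold higher (edgeR adjusted p = 6.80e-08, log2 fold change 5.05, SE 0.178). Most of its counts, 90.6%, lay in protein-coding transcripts. Cacna1h, a second T-type gene, had 14 and 3 counts in ESCs and 134 and 188 in rfISCs. The groups did not overlap, but the ESCs libraries differed several-fold at these low counts. Its log2 fold change was 3.97 (SE 0.468, edgeR adjusted p = 9.66e-05), and 5.52 without ESCs replicate 1 or 3.18 without ESCs replicate 2.

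Cacna1b, the pore gene of the N-type channel known from presynaptic terminals, had 29 and 30 counts in ESCs and 467 and 596 in rfISCs. It was 15.1-fold higher in rfISCs, at 23.0 ± 2.37 CPM against 1.52 ± 0.0880 CPM (edgeR adjusted p = 2.96e-07, log2 fold change 3.92, SE 0.185). Assembled transcripts, which carry an ID of the authors' assembly and no annotated product, held 73.9% of its counts and coding transcripts 24.2%. Cacna1a, the P/Q-type pore gene and the most abundant of the family, was not called, at 34.9 ± 2.93 and 40.0 ± 3.05 CPM (log2 fold change 0.20, edgeR adjusted p = 0.125), though its 4 libraries did not overlap. With library totals in place of TMM it was called (log2 fold change 0.28, adjusted p = 0.0375), also without ESCs replicate 1 (0.28, adjusted p = 0.0191). Within the gene the transcripts moved in opposite directions. A coding transcript of 7926 bases had 63.8 and 69.6 estimated counts in ESCs and 240 and 258 in rfISCs. A retained-intron transcript of 1153 bases had 163 and 150 estimated counts in ESCs and 49.1 and 93.1 in rfISCs. The authors' deposited table gave these transcripts log2 fold changes of 1.70 and -1.35, with adjusted p-values of 9.61e-08 and 0.0208. Over coding transcripts alone, an alternative chosen after seeing the data, Cacna1a rose (log2 fold change 1.61, edgeR adjusted p = 0.00389).

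Cacna1s, the pore gene of the skeletal muscle L-type channel, was the pore gene called lower, with 20 and 27 counts in ESCs and 6 and 10 in rfISCs. Its log2 fold change was -1.78 (SE 0.524, edgeR adjusted p = 0.0176). The call was lost without ESCs replicate 2 (-1.64, adjusted p = 0.104), without rfISCs replicate 1 (-1.52, adjusted p = 0.155), without rfISCs replicate 2 (-2.11, adjusted p = 0.0724) and with DESeq2 (adjusted p = 0.0841). The pore genes Cacna1c, Cacna1d and Cacna1e were not called, with log2 fold changes of 1.18, 0.50 and 0.53.

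Calcium auxiliary genes moved with less range. Of the 4 beta genes, whose products bind the pore subunit from inside the cell, Cacnb3 and Cacnb2 rose. Cacnb3, the most abundant, had 715 and 725 counts in ESCs and 1178 and 1427 in rfISCs, a 1.52-fold rise (edgeR adjusted p = 0.000396, log2 fold change 0.61, SE 0.0899). Cacnb2 had 2 and 2 counts in ESCs and 27 and 24 in rfISCs (edgeR adjusted p = 0.00203, log2 fold change 3.36, SE 0.653), and passed the filter through the rfISCs libraries alone. Of the 4 alpha2delta genes, which encode extracellular subunits, Cacna2d2 rose 1.78-fold (edgeR adjusted p = 0.00560). Cacna2d3, the top alpha2delta gene by TPM, had 48 and 37 counts in ESCs and 22 and 28 in rfISCs and was not called (log2 fold change -1.02, edgeR adjusted p = 0.0513). It was called without the filter (adjusted p = 0.0399), and 94.8% of its counts lay in assembled transcripts.

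The gamma genes held the strongest rises among the auxiliary genes that were abundant. Cacng7, which encodes a transmembrane regulator of AMPA receptors, had 184 and 230 counts in ESCs and 861 and 900 in rfISCs. It rose 3.61-fold, to 38.3 ± 1.46 CPM from 10.6 ± 0.804 CPM (edgeR adjusted p = 1.09e-06, log2 fold change 1.85, SE 0.108), and 91.3% of its counts lay in coding transcripts. Cacng4, of the same kind, had 38 and 32 counts in ESCs and 278 and 224 in rfISCs, a 6.07-fold rise (edgeR adjusted p = 2.76e-05, log2 fold change 2.60, SE 0.253). Cacng8 was called higher 2.49-fold (edgeR adjusted p = 0.0243), but not with DESeq2 and not without ESCs replicate 2 or without either rfISCs replicate. Cacng5 went the other way, with 22 and 47 counts in ESCs and 10 and 5 in rfISCs (edgeR adjusted p = 0.00709, log2 fold change -2.39, SE 0.584). Its call was lost without ESCs replicate 2 (-1.85, adjusted p = 0.0594) and without rfISCs replicate 2 (-1.92, adjusted p = 0.0514), and without rfISCs replicate 1 its log2 fold change was -3.04.

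**Figure D3:**
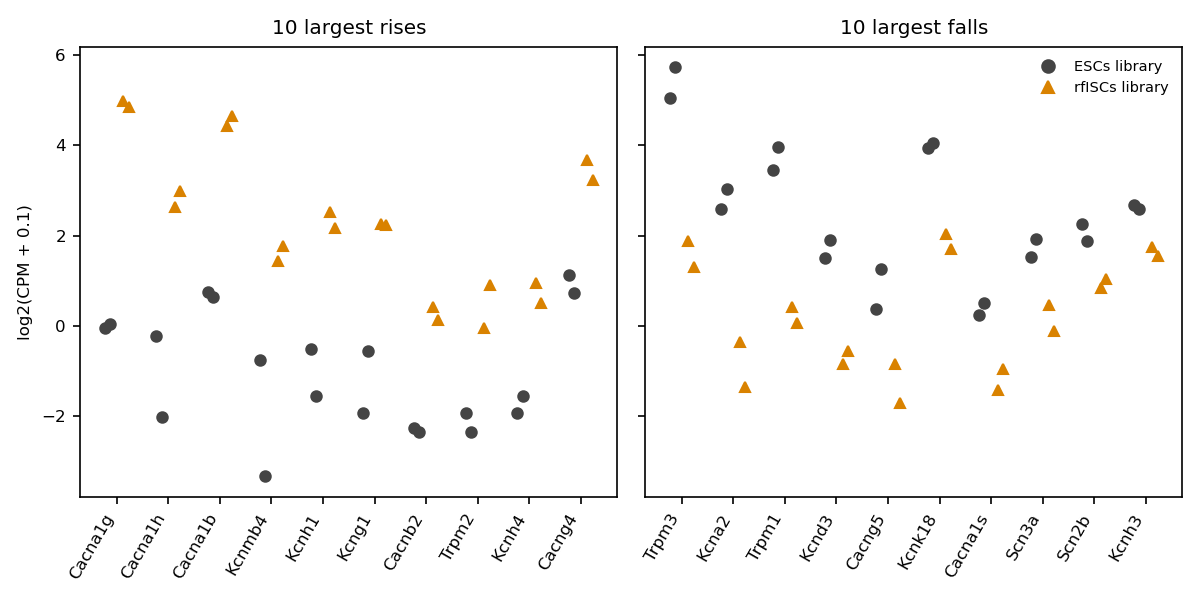
Level in each library, as log2(CPM + 0.1), of the 10 channel genes with the largest rises and the 10 with the largest falls. Circles are ESCs libraries and triangles rfISCs libraries, and no gene shown has overlapping groups, since that was a condition of the choice. The ESCs circles of Kcnmb4 and Cacna1h lie far apart from each other, at 9 and 0 counts and at 14 and 3 counts.

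Among the 40 voltage-gated potassium pore genes, 23 were tested, with 13 higher, 4 lower and 6 not called. Of the 13, 6 passed the filter through the rfISCs libraries alone and so had to be higher, which leaves 7 higher of 17. The filter can still bear on these 17, since 8 of them did not reach its cut in every library. Kcnh1, which encodes an ether-a-go-go channel, had 11 and 5 counts in ESCs and 124 and 106 in rfISCs (edgeR adjusted p = 9.12e-05, log2 fold change 3.58, SE 0.419). Hhat, which overlaps Kcnh1 on the opposite strand, was called lower, from 78 and 69 to 40 and 47 counts, and whether counting used strand is not given in the sources used here. Kcng1, which encodes a modulatory subunit silent on its own, had 3 and 12 counts in ESCs and 102 and 111 in rfISCs (edgeR adjusted p = 0.000150, log2 fold change 3.58, SE 0.453). Both were low and variable in ESCs and close between the rfISCs libraries. The log2 fold change of Kcnh1 was 4.34 without ESCs replicate 1 and that of Kcng1 was 2.97 and 4.77 without ESCs replicates 1 and 2. Kcnh4, of the Elk group, had 3 and 5 counts in ESCs and 40 and 32 in rfISCs (edgeR adjusted p = 0.00196, log2 fold change 2.91, SE 0.560).

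More abundant potassium pore genes rose as well. Kcnh2, which encodes the rapid delayed rectifier of heart muscle, rose 3.36-fold from 149 and 131 counts to 575 and 538. The groups were well apart (edgeR adjusted p = 1.75e-05), but the gene was not called when assembled transcripts were left out. Kcnd1, an A-type channel gene, rose 2.60-fold to 13.4 ± 0.133 CPM (edgeR adjusted p = 9.88e-05). The Shaker genes Kcna1 and Kcna6 had no counts in either ESCs library. In rfISCs Kcna1 had 13 and 19 counts and Kcna6 had 14 and 21. Against a floor of 3 counts over the ESCs group they were at least 9.02-fold and at least 9.87-fold higher. Without rfISCs replicate 2 neither kept enough counts to be tested. Kcna5 and Kcns2 were called higher too, from 6 to 8 counts in an ESCs library to 22 to 35 in an rfISCs library, but neither was called with DESeq2 or without either rfISCs replicate, nor Kcna5 without ESCs replicate 2. The family's top gene by TPM, Kcnh6, was not called (14.6 ± 2.98 and 15.7 ± 1.15 CPM).

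Kcna2, another Shaker gene, fell most in this family. It had 109 and 165 counts in ESCs and 15 and 7 in rfISCs, with every count in coding transcripts. It fell 14.4-fold, to 0.488 ± 0.280 CPM from 6.98 ± 1.46 CPM (edgeR adjusted p = 3.37e-05, log2 fold change -3.85, SE 0.386), and its log2 fold change was -4.56 without rfISCs replicate 1. Kcnd3, an A-type gene like Kcnd1, which rose, had 50 and 75 counts in ESCs and 10 and 14 in rfISCs (edgeR adjusted p = 0.000508, log2 fold change -2.60, SE 0.400). Kcns3, a modulatory subunit gene, fell 1.77-fold from 10.9 ± 0.783 CPM, and was not called when assembled transcripts were left out. Kcnh3, of the Elk group like Kcnh4, had 116 and 121 counts in ESCs and 71 and 68 in rfISCs (edgeR adjusted p = 0.00425, log2 fold change -1.01, SE 0.223). Its 1 coding transcript did the opposite, with no counts in either ESCs library and 48.8 and 15.7 estimated counts in rfISCs, so the fall was one of assembled transcripts, which had 104 and 98.3 estimated counts in ESCs and 13.7 and 34.5 in rfISCs. Kcnh3 shares its position with Mcrs1 on the opposite strand, which had 1860 to 2270 counts per library and was not called.

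Promoter windows of the channel genes are shown for a gene that rose and a gene that fell, to place a sequence beside their values. The windows run from 250 bases before to 50 bases after a transcription start in RefSeq's annotation of GRCm38.p6, and 116 of the 153 genes had 1 or more, 156 windows in all. Cacna1g and Cacna1h had none, so Cacna1b is shown, the largest of the 10 named rises that has a window. Kcna2 is shown for the falls, though Trpm3, which also has windows, fell slightly more (log2 fold change -3.86 against -3.85). Capitals mark GC boxes, GGGCGG or its reverse complement CCGCCC. The Cacna1b window is chr2:24763103-24763402 on the minus strand and the Kcna2 window chr3:107101317-107101616 on the plus strand, both printed along the gene.
Cacna1b: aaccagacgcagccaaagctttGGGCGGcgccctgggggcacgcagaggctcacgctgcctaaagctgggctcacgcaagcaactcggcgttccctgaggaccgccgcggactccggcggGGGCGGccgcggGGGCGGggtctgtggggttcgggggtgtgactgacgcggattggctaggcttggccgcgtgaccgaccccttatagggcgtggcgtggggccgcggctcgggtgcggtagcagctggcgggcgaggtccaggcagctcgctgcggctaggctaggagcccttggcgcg
Kcna2: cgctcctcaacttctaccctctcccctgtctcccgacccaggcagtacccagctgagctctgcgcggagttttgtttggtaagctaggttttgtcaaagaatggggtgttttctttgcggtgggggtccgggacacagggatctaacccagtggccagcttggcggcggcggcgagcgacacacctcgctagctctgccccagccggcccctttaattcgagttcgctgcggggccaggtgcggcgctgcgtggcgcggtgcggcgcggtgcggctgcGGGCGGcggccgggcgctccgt
Both windows shown hold GC boxes, 3 in Cacna1b and 1 in Kcna2, and are 72.3% and 66.7% G and C. The windows of Trpm3 hold none. Searched on both strands, GGGCGG was in 17 of 29 windows of genes called higher (58.6%, from 21 genes) and in 6 of 15 of genes called lower (40%, from 11 genes). It was in 19 of 44 windows of channel genes not called (43.2%) and in 22 of 68 of those not tested (32.4%). The share was 41% over all channel gene windows and 35.7% over the 32851 windows in the table, and no difference was tested. The octamer ATGCAAAT was in 1 of the 156 channel gene windows (0.641%) and in 1.74% of all. TCAAGGTCA, the estrogen-related receptor element, was found in no channel gene window and in 0.423% of all. Both motifs are so rare that these shares are too small to compare. These matches describe letters in the windows and not sites in use.

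The other potassium genes were split by family. Two-pore-domain genes encode leak channels, and 7 of 14 were tested, with 3 higher, 2 lower and 2 not called. Of the 3 higher, 2 passed the filter through the rfISCs libraries alone and so had to be higher. Kcnk5, an acid-sensitive leak channel gene, had 1365 and 1402 counts in ESCs and 975 and 1111 in rfISCs, a 1.57-fold fall to 45.3 ± 1.04 CPM from 71.3 ± 4.49 CPM (edgeR adjusted p = 0.000109). Kcnk18, a leak channel gene known from sensory neurons, had 280 and 336 counts in ESCs and 87 and 76 in rfISCs (edgeR adjusted p = 1.07e-05, log2 fold change -2.15, SE 0.181). No count of it came from its annotated coding transcript of 3470 bases, which was at 0 in the 4 libraries. They lay in 2 assembled transcripts of 700 and 476 bases, and the longer held 228 and 258 estimated counts in ESCs and 68.3 and 61.2 in rfISCs. Kcnk1 rose 1.48-fold to 18.4 ± 2.04 CPM, a call lost without ESCs replicate 1 or rfISCs replicate 1. Kcnk13 had no counts in ESCs and 17 and 19 counts in the rfISCs libraries, which put it at least 10.2-fold above the floor of 3 counts. Kcnk2, a mechanosensitive leak channel gene, had 3 and 0 counts against 13 and 16, all in transcripts annotated as not coding. The ratio was 8.18 with an exact 95% counting interval of 2.54 to 42.0. The call of Kcnk2 was lost with DESeq2, without ESCs replicate 2 and without either rfISCs replicate.

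Of 15 inward rectifier genes 5 were tested, and Kcnj3, which encodes a G protein-gated channel subunit, rose 5.08-fold from 11 and 24 to 110 and 99 counts (log2 fold change 2.35, edgeR adjusted p = 0.000538). Kcnj12, the most abundant by TPM, was not called (log2 fold change -0.03), and its sign turned with library totals. The 8 genes of calcium- or sodium-activated potassium channels were tested in full, with 2 higher, 1 lower and 5 not called. Kcnt1, a sodium-activated channel gene, rose 3.19-fold and Kcnn4, a calcium-activated channel gene, 4.79-fold. Of the Kcnt1 counts 74.5% lay in transcripts annotated as not coding, and over coding transcripts alone it was not called. Kcnt1 was not called without rfISCs replicate 2, nor Kcnn4 without rfISCs replicate 1. Kcnn2, the most abundant by TPM, was not called (log2 fold change 0.31), and Kcnu1, known from sperm, was called lower from 15 and 13 to 6 and 1 counts, but not with DESeq2, without either ESCs replicate or without rfISCs replicate 2. Among 15 auxiliary genes Kcnip3, whose product binds calcium and A-type channels, rose 3.42-fold from 45 and 50 to 175 and 210 counts (edgeR adjusted p = 9.51e-05). Kcnmb4, an auxiliary subunit gene of large-conductance calcium-activated channels, had 9 and 0 counts in ESCs and 57 and 80 in rfISCs (edgeR adjusted p = 0.00298, log2 fold change 3.63, SE 0.754). Leaving out ESCs replicate 1 gave a log2 fold change of 9.04 and leaving out ESCs replicate 2 one of 2.58, and DESeq2 did not call it (adjusted p = 0.143). Kcnip2, the most abundant of this family by TPM, did not differ detectably (log2 fold change 0.00, edgeR adjusted p = 0.991).

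Few sodium channel genes had counts to test. Of 14, 6 were tested, with 3 higher, 2 lower and 1 not called. Scn8a, a neuronal pore gene, had 284 and 283 counts in ESCs and 496 and 536 in rfISCs, a 1.54-fold rise (edgeR adjusted p = 0.00174, log2 fold change 0.62, SE 0.117). Assembled transcripts held 76.8% of these counts, and over the transcripts with an Ensembl ID the direction turned (log2 fold change -0.66, edgeR adjusted p = 0.216). Scn3a, a pore gene of the fetal brain, had 51 and 76 counts in ESCs and 28 and 20 in rfISCs (edgeR adjusted p = 0.00520, log2 fold change -1.62, SE 0.373). Of the beta genes, whose products are adhesion-like auxiliary subunits, Scn2b fell from 86 and 74 to 37 and 47 counts (log2 fold change -1.18, edgeR adjusted p = 0.00775), a call lost when assembled transcripts were left out (-0.56, adjusted p = 0.197). Scn3b rose 1.74-fold (edgeR adjusted p = 0.0388), and was not called with DESeq2, with the replicate number as a block, without ESCs replicate 1 or without either rfISCs replicate. Scn7a, Scn10a and Scn11a had no counts in the 4 libraries.

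Of 21 TRP channel genes 8 were tested, with 2 higher and 4 lower. Trpm7, a channel fused to a kinase that carries magnesium and calcium, was the most abundant channel gene in mean TPM. It had 3794 and 4495 counts in ESCs and 3688 and 4285 in rfISCs, or 213 ± 8.08 and 173 ± 6.35 CPM. The groups did not overlap in CPM and edgeR called the fall of 1.23-fold (log2 fold change -0.30, SE 0.0589, adjusted p = 0.00232), but limma on log2(TPM + 1) did not (log2 fold change -0.08, adjusted p = 0.393). Trpm4, a calcium-activated channel for monovalent cations, had 30.5 ± 1.84 CPM in ESCs and fell 1.38-fold to 22.1 ± 0.804 CPM in rfISCs (edgeR adjusted p = 0.00358), and was not called by limma on TPM either (adjusted p = 0.155). The processed pseudogene Rpl14-ps1 overlaps Trpm4 on the opposite strand and had 2918 to 4214 counts per library, so the division of reads there is uncertain. Trpc1, the TRPC gene with enough counts, was called higher (log2 fold change 0.78, edgeR adjusted p = 0.0345), but not with DESeq2, without ESCs replicate 1 or without either rfISCs replicate. Trpv2 and Trpv4 were not called (log2 fold change -0.74 and -1.10), though leaving out ESCs replicate 1 gave -0.08 for Trpv2 and leaving out ESCs replicate 2 gave -1.21, which was called (edgeR adjusted p = 0.0447). Trpm2, an oxidant-sensitive channel gene, rose from 3 and 2 to 19 and 43 counts (log2 fold change 3.31, edgeR adjusted p = 0.00307), or 2.69 with adjusted p = 0.0688 without rfISCs replicate 2, and 95.3% of its counts lay in transcripts annotated as not coding.

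Trpm3 and Trpm1 fell most among the TRP genes. Trpm3, a channel known from heat sensing, had 603 and 1081 counts in ESCs and 78 and 57 in rfISCs. The ESCs libraries differed from each other but were far above both rfISCs libraries, at 42.7 ± 13.9 and 2.96 ± 0.851 CPM (edgeR adjusted p = 2.67e-06, log2 fold change -3.86, SE 0.260). Trpm1, known from retinal bipolar cells and melanocytes, had 199 and 317 counts in ESCs and 27 and 23 in rfISCs (edgeR adjusted p = 5.00e-06, log2 fold change -3.59, SE 0.267). Most of the counts behind both falls lay outside annotated coding transcripts. In Trpm3 4 assembled transcripts held 95.8% of the counts, and the longest of these was 2605 bases against 12305 bases for the coding transcript with most counts, which had 30.2 and 13.0 estimated counts in ESCs and 10.3 and 12.0 in rfISCs. Over coding transcripts alone Trpm3 was not called (log2 fold change -1.15, edgeR adjusted p = 0.233). In Trpm1 transcripts annotated as not coding held 89.4% of the counts. A retained-intron transcript of 1992 bases had 157 and 280 estimated counts in ESCs and 14.5 and 8.66 in rfISCs, and over coding transcripts alone the gene was not called (log2 fold change -2.53, edgeR adjusted p = 0.0929).

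**Figure D4:**
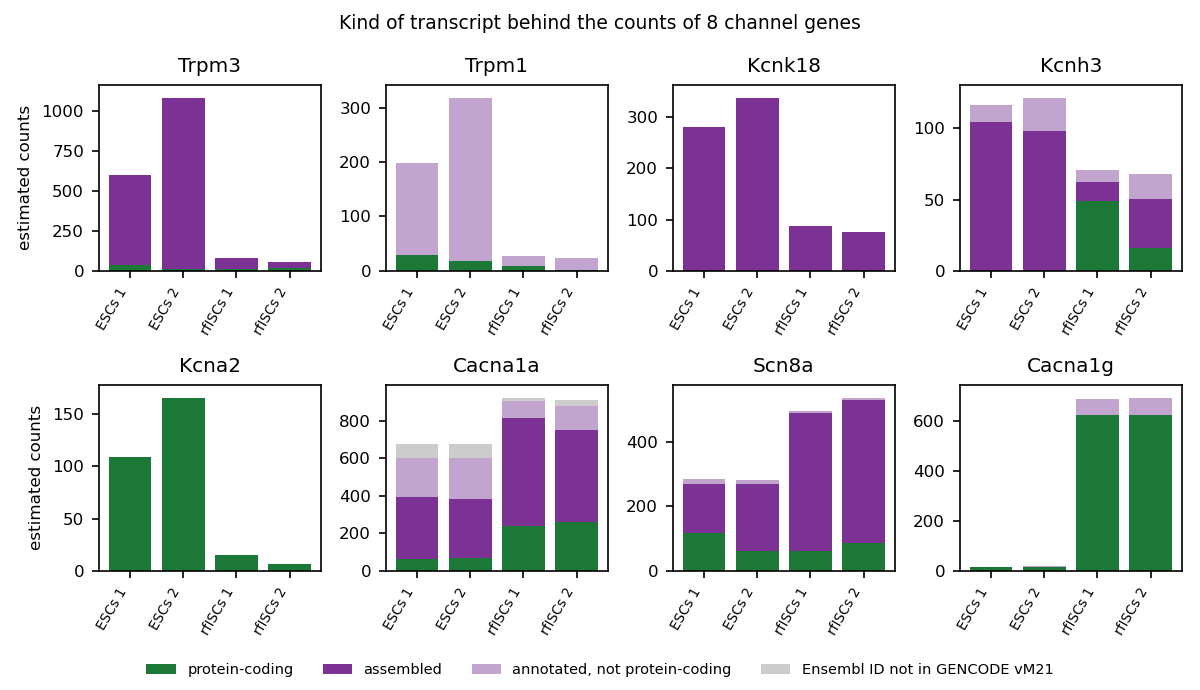
Estimated counts in each library of 8 channel genes, stacked by the kind of transcript that held them: protein-coding in GENCODE vM21, assembled by the authors, annotated but not protein-coding, or with an Ensembl ID that vM21 does not list. The Kcnk18 bars hold assembled transcripts alone, the Kcna2 bars coding transcripts alone, and the Kcnh3 coding part appears in the rfISCs libraries alone.

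RefSeq gives Trpm1 2 promoter windows, shown because the retained-intron transcript starts inside the downstream one. In the upstream window, chr7:64153585-64153884 (GRCm38.p6, plus strand), capitals mark TCATGTG, the M-box known from melanocyte promoters. In the downstream window, chr7:64185209-64185508 on the same strand, capitals mark the bases from that transcript's annotated start onward.
Trpm1 upstream: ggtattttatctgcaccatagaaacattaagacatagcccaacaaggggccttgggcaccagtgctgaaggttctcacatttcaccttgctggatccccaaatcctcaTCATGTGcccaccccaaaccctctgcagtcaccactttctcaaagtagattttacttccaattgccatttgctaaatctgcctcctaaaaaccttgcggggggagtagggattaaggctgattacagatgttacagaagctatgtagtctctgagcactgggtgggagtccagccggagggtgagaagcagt
Trpm1 downstream: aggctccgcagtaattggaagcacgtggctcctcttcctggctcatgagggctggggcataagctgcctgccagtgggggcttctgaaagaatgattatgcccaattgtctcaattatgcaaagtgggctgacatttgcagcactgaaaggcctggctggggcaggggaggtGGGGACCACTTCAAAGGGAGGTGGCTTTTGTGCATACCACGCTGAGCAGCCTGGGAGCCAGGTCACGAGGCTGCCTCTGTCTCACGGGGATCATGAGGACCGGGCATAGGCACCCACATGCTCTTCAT
TCATGTG or its reverse complement was in the upstream window alone of these, and in 3.77% of all windows. Both Trpm genes are also hosts of a microRNA. Mir211 lies in intron 6 of the 10-exon retained-intron transcript of Trpm1, and Mir204 lies within Trpm3 on the same strand. Their mature sequences follow with the seed, bases 2 to 8, in capitals, since the products share it.
mmu-miR-204-5p: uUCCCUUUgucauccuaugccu
mmu-miR-211-5p: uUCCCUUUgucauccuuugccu
The seeds are identical, UCCCUUU, and the mature sequences differ at 1 of 22 bases. The rows of both microRNA genes had 0 counts in the 4 libraries, so no level of the microRNAs is given.

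Kinds of transcript differed widely between genes. Over all channel genes 65.2% of the counts lay in protein-coding transcripts, 26.3% in assembled ones and 7.66% in annotated transcripts that are not coding. Of the 85 tested genes, 56 had most of their counts in coding transcripts, 16 in assembled ones and 10 in annotated non-coding ones, and 3 had no kind above 50%. Among the called genes 26 of 35 higher and 9 of 15 lower had most counts in coding transcripts. When only coding transcripts were summed, 70 channel genes were tested, of which 23 were higher and 7 lower, with 20 and 7 of these also called over all transcripts. The shares of all genes called in that fit are not given here, and the 27.3% and 26.4% above belong to the fit over all transcripts. Cacna1g, Cacna1h, Cacna1b and Cacng7 kept their direction and call in that count, and so did the falls of Kcna2 and Kcnd3. The rises of Cacnb2, Trpm2 and Kcna6 were among those lost, and Trpm3, Trpm1 and Kcnh3 were not called lower. Kcnk18 and Kcnk2 had no coding counts to test.

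Other genes that move cations were counted beside the channels, from a list of 85, of which 73 were tested. In all 28 were higher, 22 lower and 23 not called, where 27.3% of all tested genes were higher and 26.4% lower. Of 16 genes of calcium release from stores and store-operated entry, 3 were higher and 6 lower. Itpr3, an inositol trisphosphate receptor gene, had 4162 and 3740 counts in ESCs and 2148 and 2572 in rfISCs (1.99-fold lower, edgeR adjusted p = 3.21e-05), and its paralog Itpr2 rose from 10 and 9 to 38 and 39 counts (log2 fold change 1.76). Of 19 tested pump and exchanger genes 6 were higher and 9 lower. Atp2a1, a calcium pump gene of fast muscle, had 1 and 2 counts in ESCs against 34 and 33, a ratio of 18.9 with an exact 95% counting interval of 6.19 to 93.9.

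Of 20 tested genes of other cation channels, 10 were higher and 3 lower. Mcoln3, a lysosomal channel gene, had 0 and 4 counts in ESCs and 59 and 49 in rfISCs (log2 fold change 4.45), and Pkd2l1, a channel gene known from cells that contact the spinal fluid, fell 3.70-fold from 203 and 242 to 63 and 79 counts. Of 18 tested genes for channel partners, 9 were higher and 4 lower. Fgf14, whose product binds sodium channels inside the cell, had 2 and 0 counts in ESCs and 16 and 26 in rfISCs, a ratio of 17.8 with an exact 95% counting interval of 4.62 to 152. Stac2, whose product binds L-type calcium channels, fell 2.52-fold from 348 and 366 to 157 and 178 counts.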

How the data were processed

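RNA of 2 ESCs and 2 rfISCs libraries of the mouse line 46C was sequenced. The authors deposited 1 table with a row for each of 160308 transcripts. It gives, per the file headers, estimated counts of reads (with decimals, not scaled between libraries), TPM, and for each transcript the authors' ratio of rfISCs to ESCs as a fold change, its log2 and its p-value and adjusted p-value. Bowtie 0.12.2 and mm9 are named in the submitters' processing notes, and the quantifier, assembler, annotation, strand setting and test are not given in the sources used here. Because the build of the table is unsettled, coordinates are given for RefSeq's sequence windows alone.

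Estimated counts were summed per gene name and rounded to whole numbers. Transcripts with a blank gene name held 1.58% and 1.62% of counts in ESCs and 1.27% and 1.22% in rfISCs, and were left out. Genes were kept by filterByExpr (minimum count 10), and edgeR's quasi-likelihood test (edgeR 4.0.16, R 4.3.3) with TMM scaling was fitted to all 4 libraries, with Benjamini-Hochberg adjustment over 16355 genes and a threshold of 0.05. The test was also run on simulated counts with 200 changed genes. Since 8783 genes were called in the data, that run does not show how the test does with changes this broad. SE is the log2 fold change divided by the square root of F. Intervals and floors (3 counts over a group, 95% exact intervals) cover counting error alone. The smallest p of an exact two-sided permutation test with 2 against 2 is 0.333, hence the fit across genes. Counts of the replicate pairs differed beyond sampling noise (chi-square per degree of freedom 6.71 and 4.55).

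Genes named in the text are the 10 largest called rises and falls with at least 1 CPM in the higher group and groups that do not overlap, the 8 highest in mean TPM, the top gene of each of 14 families by TPM, and the largest called rise and fall of each group of the transport list. Others were named after their values were seen. A few genes under this rule are not reported here. The members and lists were chosen with earlier results of these data known. Transcript kinds came from GENCODE vM21 by ID. Alternatives were DESeq2 1.42.0 (size factors and test), library totals, no filter, a minimum count of 20, transcripts with an Ensembl ID alone, limma 3.58.1 on log2 TPM with pseudocounts of 1 and 0.1, a block for the replicate number, leaving out each library, and coding transcripts alone.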

Additional observations from a re-analysis of the deposited data

How the results depend on the processing

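Counts of channel genes called higher and lower were 35 and 15. They were 35 and 15 with DESeq2's size factors, 36 and 15 with library totals, 37 and 17 without the filter, 30 and 15 at a minimum count of 20, and 27 and 13 with DESeq2. With transcripts that have an Ensembl ID alone they were 25 and 9. Limma on TPM called 19 and 6 with either pseudocount, among 53 channel genes tested, and 14 related transport genes lower in place of 22. There the median of all genes was 0.15 (pseudocount 1) and 0.16 (0.1), so fold changes stand against that shift. Over coding transcripts alone, chosen after seeing the data, 23 and 7 were called, and 5176 genes in all against 8783. For the fits on Ensembl and on coding transcripts the shares over all genes are not given here, so their channel counts have no background beside them. Leaving out 1 library gave 24 to 35 higher and 12 to 15 lower, 6808 to 9284 genes in all, and 19 to 28 and 17 to 22 transport genes. In these fits the lone library is assumed to vary like the other group. The median log2 fold change of channel genes, 0.47, was 0.35 with limma on log2(TPM + 1), 0.63 without the filter and 0.37 to 0.60 with 1 library left out.

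The replicate number as a block gave 34 higher, without Scn3b, and 15 lower (8824 genes in all). Deviations of libraries with the same number correlated at 0.00103 over the tested genes. No shared shift was seen, but this value cannot tell whether they shared a culture or day.

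Several named genes changed sign. With Ensembl transcripts alone, log2 fold changes were 1.13 for Kcnh3, -0.16 for Cacna1a, -0.13 for Kcnip2, 0.037 for Kcnj12 and -0.66 for Scn8a. Over coding transcripts alone they were 7.93 for Kcnh3 (no ESCs counts, so no bound), -0.53 for Kcnip2, 0.0051 for Kcnj12 and -0.59 for Scn8a. Limma on TPM, with pseudocounts of 1 and 0.1, gave -0.31 and -0.33 for Cacna1a, 0.11 and 0.15 for Kcnj12, -0.19 and -0.21 for Kcnn2, and 0.049 and 0.12 for Trpv2. Kcnj12 was 0.055 with library totals and -0.23 to 0.19 with 1 library left out. Kcnip2 was -0.0016 at a minimum count of 20, and -0.23 to 0.29 with 1 library left out. Kcnh6 was -0.091 to 0.32 with 1 library left out. Kcnh3 and Scn8a were called before the change and the others were not. Leaving out transcripts removes their counts by construction, and for the other settings the cause was not tested.

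Depth limits the 68 channel genes that were not tested, and a low count there is not a sign of absence.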
